A study of Homo sapiens with 8 samples.

Results

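A set of 10 genes that are textbook targets of hypoxia-inducible factor (HIF) was followed across the 8 arrays of a T-cell leukaemia experiment: BNIP3, BNIP3L, VEGFA, ADM, ANKRD37, EGLN3, PDK1, NDRG1, P4HA1 and KDM3A. The 10 genes were chosen by name from the platform annotation, out of 17687 named genes and 21448 probe sets, and each had 1 probe set. The cells were CCRF-CEM, a long-established line from a human T-cell acute lymphoblastic leukaemia. OICR-9429 cells were pretreated for 1 h with 1 µM OICR-9429, a small molecule that occupies the pocket of WDR5 used by MLL-family histone methyltransferases, and untreated cells were not. All cells were then held for 1 h in a bovine type I collagen gel of 1.7 mg/mL before RNA was taken, and no low-oxygen treatment or solvent control is named. There were 4 arrays per group, called biological replicates 1 to 4 in the labels, and whether a number marks a passage or a day is not given. P-values of treatment alone therefore measure the spread between these samples, which may be technical. P-values between numbers, and of treatment within numbers, measure the spread of treated-minus-untreated differences at the same number. They do not measure a spread between separate cultures.

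HIF is a transcription factor made of an oxygen-regulated alpha subunit and the constant partner ARNT. When oxygen is plentiful, prolyl hydroxylases of the EGLN family mark the alpha subunit for destruction through VHL. When oxygen is short, the alpha subunit accumulates, and the dimer binds DNA at a short core sequence and turns on genes for glycolysis, vessel growth, removal of mitochondria and its own feedback.

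Values are log2 expression per probe set, as deposited after RMA normalization, so a difference of 1 is a 2-fold difference. Array medians lay between 6.38 and 6.46, and the number of arrays limits the precision. Of 16 markers of T-cell leukaemia lines, 15 were measured and 14 had a mean level above the median of all probe sets, 6.445. As a guide to signal with little or no transcript, 348 olfactory receptor genes, which are usually silent outside the nose, had a median of 3.39 and a 95th percentile of 4.82. The samples are bulk RNA, in which fewer cells expressing a gene and less RNA per cell cannot be told apart.

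The core that HIF binds reads ACGTG or GCGTG on either strand, and promoters of 7 of the 10 genes were in a RefSeq promoter table (build GRCh38.p14, 250 bases before to 50 bases after each start). BNIP3L, VEGFA and NDRG1 had no entry. The core was found at 6 of the 7 genes, and in 48.4% of the 35116 promoters in the table, so a match is common. The sequences below are the stretches upstream of the start that hold the matches. They were chosen by the match and not by expression. Capitals mark ACGTG or GCGTG in either orientation (CACGT and CACGC are the same cores on the other strand).
BNIP3 (chr10:131982005-131982084, minus strand): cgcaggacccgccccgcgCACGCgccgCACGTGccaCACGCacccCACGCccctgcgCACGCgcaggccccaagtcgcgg
ANKRD37 (chr4:185396661-185396720, plus strand): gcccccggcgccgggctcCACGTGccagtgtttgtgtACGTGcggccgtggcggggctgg
PDK1 (chr2:172556055-172556089, plus strand): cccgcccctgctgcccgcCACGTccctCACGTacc
P4HA1 (chr10:73096930-73096970, minus strand): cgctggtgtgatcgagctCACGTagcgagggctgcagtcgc
ADM (chr11:10304954-10304994, plus strand): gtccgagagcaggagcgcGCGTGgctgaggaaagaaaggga
KDM3A (chr2:86441327-86441367, plus strand): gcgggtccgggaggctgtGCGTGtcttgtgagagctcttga

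BNIP3 held 6 matches, the most among the 7 genes, spread from 143 to 100 bases before the start, where both strands of 1 CACGTG were counted. ANKRD37 held 3, again with 1 CACGTG read on both strands. That palindrome, which MYC-type factors also bind, stood in 7.26% of all promoters. PDK1 has 2 starts in the table, and the matches lay before the second start only. At EGLN3 these letters were not found in the window. A match is a description of the letters and shows no binding in these cells.

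Of the 10 genes, 9 differed between replicate numbers, and none passed the test between OICR-9429 and untreated cells. BNIP3, P4HA1, VEGFA and NDRG1 were lower at number 1 than the mean of the other numbers by 6.20-fold, 3.89-fold, 3.81-fold and 3.32-fold. Number 1 had the lowest mean for all 10 genes, and number 4 the highest for 7 genes. EGLN3 was the gene that did not pass the test between numbers. Tests were made with limma over all 21448 probe sets, in a model with number and treatment, with a Benjamini-Hochberg adjusted p under 0.05 as the threshold.

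**Figure D1:**
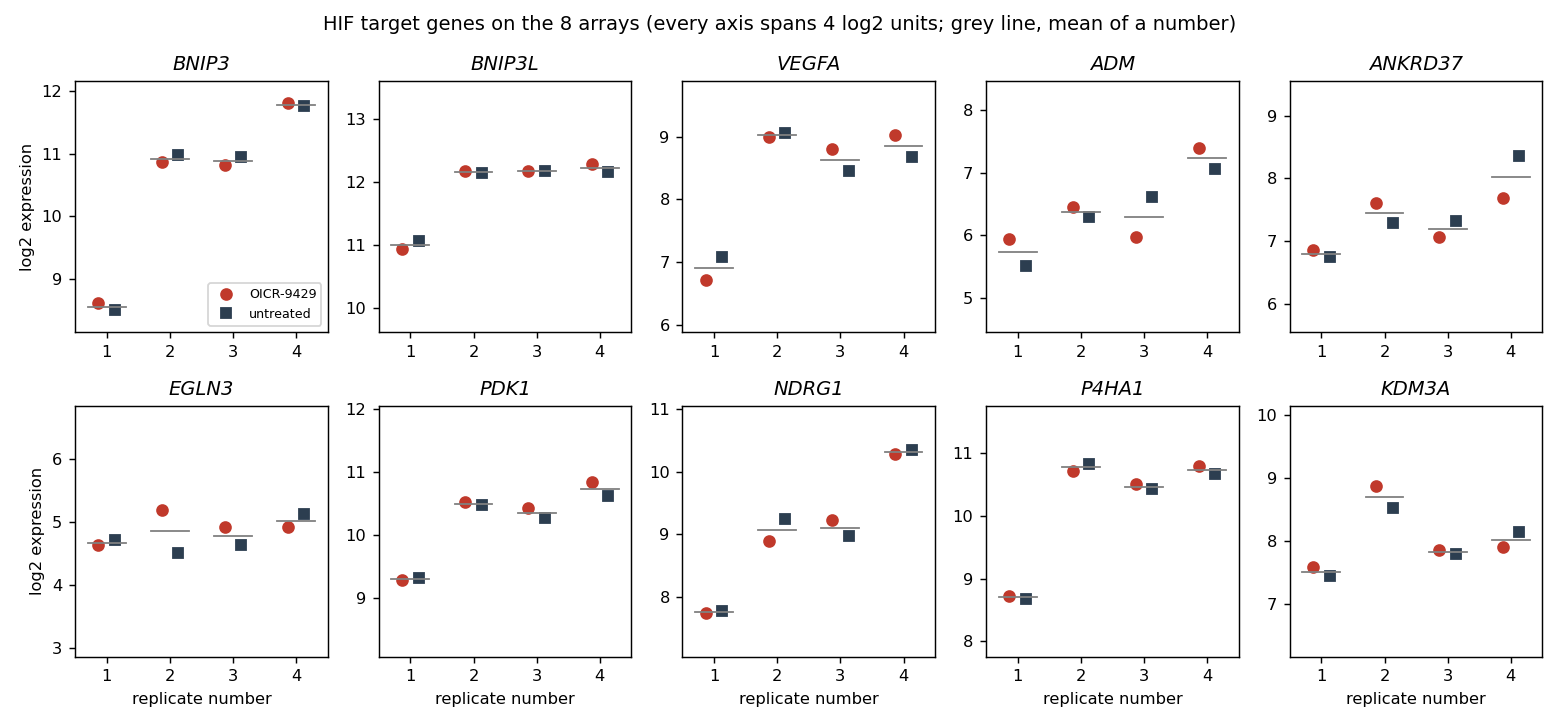
Log2 expression (y axis, each panel spanning 4 log2 units around its own gene) of the 10 genes by replicate number (x axis), with 1 point for each of the 4 OICR-9429 arrays (circles) and the 4 untreated arrays (squares), and grey lines for the mean of a number. The 2 points of a number lie close together for BNIP3, BNIP3L, PDK1 and P4HA1, and both points of number 1 lie below all 6 others in 9 panels, EGLN3 being the exception.

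BNIP3 and BNIP3L encode related proteins of the outer mitochondrial membrane that recruit the autophagy machinery to mitochondria. BNIP3 measured 8.62, 10.86, 10.82 and 11.81 in OICR-9429 cells of numbers 1 to 4, against 8.50, 10.97, 10.94 and 11.75 in untreated cells. Both arrays of number 1 lay more than 2 log2 units below every other array, and both arrays of number 4 lay above every other array. The difference of number 1 from the mean of the others was -2.63 ± 0.11 (SE, n = 2 arrays against 6; limma, adjusted p = 6.3e-05), and that of number 4 was 1.66 ± 0.11 (limma, adjusted p = 4.06e-05). Numbers 2 and 3, at means of 10.92 and 10.88, were not told apart (limma, adjusted p = 0.924).

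BNIP3L measured 10.93, 12.17, 12.17 and 12.29 in OICR-9429 cells, against 11.06, 12.15, 12.18 and 12.16 in untreated cells. Only number 1 stood apart, and the 6 arrays of the other numbers lay close to one another. Its difference at number 1 was -1.19 ± 0.11 (SE; limma, adjusted p = 0.00127), which is 2.28-fold. Numbers 4 and 3, and numbers 3 and 2, were not told apart as neighbours (limma, adjusted p = 0.795 and 0.968), while number 2 stood above number 1 by 1.17 (limma, adjusted p = 0.00295). BNIP3 had a wider range of number means than BNIP3L, 3.22 against 1.23 log2 units.

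VEGFA and ADM encode secreted factors, vascular endothelial growth factor A and the vasodilator peptide adrenomedullin. VEGFA measured 6.71, 8.99, 8.80 and 9.02 in OICR-9429 cells, against 7.09, 9.06, 8.45 and 8.67 in untreated cells. Number 1 was lower than the mean of the others by a log2 difference of -1.93 ± 0.16 (SE; limma, adjusted p = 0.000917). Its highest mean was at number 2, and numbers 2, 4 and 3 did not differ as neighbours (limma, adjusted p = 0.494 and 0.414). For ADM the values were 5.95, 6.45, 5.98 and 7.40 in OICR-9429 cells, against 5.52, 6.29, 6.61 and 7.06 in untreated cells. Number 4 lay above all other arrays, by 1.10 ± 0.20 (SE; limma, adjusted p = 0.00244) over the mean of the other numbers. Number 1 was lower by -0.90 ± 0.20 (SE; limma, adjusted p = 0.0223), but neither its neighbour in the order, number 3, nor number 2 differed from it in pairwise tests (limma, adjusted p = 0.316 and 0.13).

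P4HA1, EGLN3 and KDM3A encode oxygen-dependent dioxygenases: a catalytic subunit of the prolyl hydroxylase that matures collagen, a prolyl hydroxylase that targets HIF alpha itself, and a demethylase of histone H3 lysine 9. P4HA1 measured 8.72, 10.72, 10.51 and 10.80 in OICR-9429 cells, against 8.68, 10.83, 10.42 and 10.67 in untreated cells. Number 1 was apart by -1.96 ± 0.11 (SE; limma, adjusted p = 0.00015), and the other 3 numbers were not told apart from their neighbours (limma, adjusted p = 0.834 and 0.154). KDM3A measured 7.58, 8.87, 7.85 and 7.90 in OICR-9429 cells, against 7.44, 8.52, 7.79 and 8.14 in untreated cells. It peaked at number 2, which was higher than the mean of the other numbers by 0.91 ± 0.14 (SE; limma, adjusted p = 0.00297) higher than its neighbour in the order, number 4, by 0.68 (limma, adjusted p = 0.0113), and higher than number 3 by 0.88 (limma, adjusted p = 0.0351). It was also the only one of the 10 genes that differed between numbers 2 and 3. At number 1 KDM3A was lower by -0.67 ± 0.14 (SE; limma, adjusted p = 0.0164), and without the arrays of number 2 that difference was -0.41 (limma, adjusted p = 0.0628).

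EGLN3 gave signals near the 95th percentile of olfactory receptor genes, 4.82, and above their median of 3.39. Its values were 4.63, 5.20, 4.93 and 4.92 in OICR-9429 cells, against 4.71, 4.51, 4.64 and 5.13 in untreated cells. Its range of number means was 0.36 log2 units, and the test between numbers gave adjusted p = 0.531 (limma). At this signal a difference in EGLN3 transcript could go unmeasured.

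PDK1 encodes a kinase that shuts pyruvate dehydrogenase and so keeps pyruvate out of mitochondria. It measured 9.28, 10.52, 10.43 and 10.84 in OICR-9429 cells, against 9.31, 10.47, 10.27 and 10.62 in untreated cells. The order 4, 2, 3, 1 had 1 clear step, between numbers 3 and 1 (1.06 log2 units; limma, adjusted p = 0.012), while its other neighbours were not told apart (limma, adjusted p = 0.199 and 0.618). NDRG1, a stress-responsive gene linked to differentiation and to metastasis suppression, measured 7.75, 8.90, 9.23 and 10.28 in OICR-9429 cells, against 7.78, 9.25, 8.97 and 10.35 in untreated cells. Here there were 2 steps: number 4 stood above number 3 by 1.22 (limma, adjusted p = 0.00119), and number 2 above number 1 by 1.31 (limma, adjusted p = 0.00377). ANKRD37, an ankyrin repeat gene, measured 6.86, 7.60, 7.07 and 7.69 in OICR-9429 cells, against 6.74, 7.29, 7.32 and 8.36 in untreated cells. None of its neighbouring numbers differed, although number 4 was higher than the mean of the others by 0.88 ± 0.19 (SE; limma, adjusted p = 0.00491) and number 1 lower by -0.76 ± 0.19 (SE; limma, adjusted p = 0.0301).

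Counted together, 9 of the 10 genes passed the test of any difference between numbers, where 50.3% of all probe sets did. At number 1, 9 were lower than the mean of the other numbers and 0 were higher, where 6.14% of all probe sets were lower and 10.6% higher. Among probe sets above the median level, 7.37% were lower at number 1. The median difference at number 1 was -1.21 for the 10 genes and -0.03 for all probe sets. At number 4, 8 were higher and 0 lower, where 26.3% of all probe sets were higher and 25.5% lower, with medians of 0.72 and 0.08. At number 2, 6 were higher and 0 lower, where 15.4% were higher and 11.6% lower. The mean of the other numbers holds the low number 1 there. Set against number 3 or number 4 alone, only KDM3A was higher at number 2. At number 3, 0 passed in either direction, where 1.18% of probe sets were higher and 0.2% lower. The genes had been picked with earlier results of these arrays known, BNIP3 at number 1 among them, so these counts describe the arrays and are no independent evidence.

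**Figure D2:**
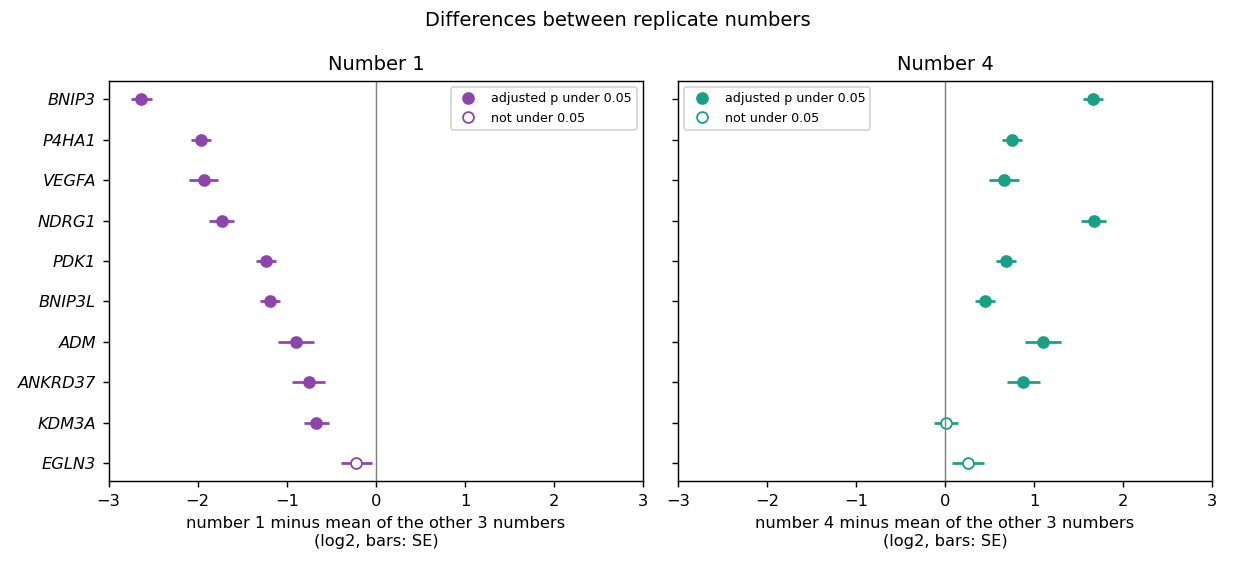
Log2 difference of number 1 (left) and number 4 (right) from the mean of the other 3 numbers, for each of the 10 genes, with bars of 1 SE and open points where the limma adjusted p was not under 0.05. At number 1 the differences run from -2.63 for BNIP3 to -0.22 for EGLN3, and at number 4 from 0.01 for KDM3A to 1.67 for NDRG1.

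The same counts without overlap gave 9 genes whose arrays of number 1 both lay below the 6 others, against 8.34% of all probe sets, and 5 genes (BNIP3, ADM, ANKRD37, PDK1 and NDRG1) whose arrays of number 4 both lay above the 6 others, against 25.4%. Both arrays of number 4 stand apart over the whole transcriptome, so the comparison was repeated without them. Number 1 was then lower than the mean of numbers 2 and 3 for 7 genes, where 4.32% of all probe sets were lower. BNIP3, VEGFA and P4HA1 were lower by 5.05-fold, 3.80-fold and 3.78-fold. ADM and ANKRD37 no longer passed, at -0.60 ± 0.21 and -0.52 ± 0.15 (SE; limma, adjusted p = 0.113 and 0.0648).

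Without the arrays of number 1, number 4 exceeded the mean of numbers 2 and 3 for 4 genes, NDRG1, BNIP3, ADM and ANKRD37, where 23.1% of all probe sets were higher. The differences were 1.23 ± 0.16, 0.88 ± 0.12, 0.90 ± 0.21 and 0.71 ± 0.20 (SE; limma, adjusted p = 0.00146, 0.00195, 0.014 and 0.0297). For BNIP3L, VEGFA and P4HA1 the values were 0.06 ± 0.12, 0.02 ± 0.14 and 0.12 ± 0.13 (SE; limma, adjusted p = 0.722, 0.919 and 0.483), so their calls at number 4 rested on the arrays of number 1. PDK1 stood at 0.31 ± 0.12 (SE; limma, adjusted p = 0.0792). Any difference among numbers 2, 3 and 4 was called for 4 genes (BNIP3, NDRG1, ADM and KDM3A), where 43.4% of all probe sets were called.

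Across the 10 genes there were 30 neighbouring pairs in the orders of numbers, and 10 of them differed. Of these 10, 6 set number 1 below its neighbour and 3 set number 4 above its neighbour. In pairwise tests number 1 was lower than number 2 for 7 genes, than number 3 for 6 genes and than number 4 for 9 genes, where 14.9%, 1.79% and 44.5% of all probe sets differed in either direction. Numbers 2 and 3 differed for 1 gene, where 4.4% of all probe sets did. Number 2 was lower than number 4 for BNIP3, ADM and NDRG1 and higher for KDM3A, where 47.8% of all probe sets differed. Number 3 was lower than number 4 for 4 genes (BNIP3, ADM, ANKRD37 and NDRG1), where 39.7% did.

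Replicate number held most of the variance of each of these genes but EGLN3, where neither number nor treatment accounted for 56.2%. Its share ran from 30.3% for EGLN3 to 99.8% for BNIP3, with a median of 97.6% over the 10 genes, against a median of 81.3% over all probe sets. Treatment held a median of 0.278% for the 10 genes and 2.51% for all probe sets, and its highest share was 13.6%, at EGLN3. Number enters with more terms than treatment, so their shares are not directly comparable.

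Of 41 other HIF targets listed, 35 were measured, and at number 1 23 were lower, 0 were higher and 12 did not pass, where 6.14% of all probe sets were lower and 10.6% higher. Their median difference at number 1 was -0.83. At number 4 21 were higher and 1 lower, with a median of 0.47, where 26.3% of all probe sets were higher and 25.5% lower. That comparison holds the low number 1 in the mean of the others. EPO, which encodes erythropoietin, was among the 12 that did not pass at number 1, at 0.32 ± 0.14 (SE; limma, adjusted p = 0.157). It read 4.43 to 4.97, near the 95th percentile of olfactory receptor genes, 4.82, so a difference could go unmeasured. BHLHE41 and TMEM45A, also among the 12, read below 4.82 on every array, while TFRC, another of them, read 11.25 to 11.63. BHLHE40, a repressor of the clock and of metabolism, was lower at number 1 by -2.35 ± 0.12 and higher at number 4 by 1.99 ± 0.12 (SE; limma, adjusted p = 0.00011 and 3.54e-05). P4HA2, which encodes the sister subunit of P4HA1, differed by -2.29 ± 0.13 and 2.02 ± 0.13 (SE) at numbers 1 and 4. GBE1, the glycogen branching enzyme, and ANKZF1, a mitochondrial stress gene, were lower at number 1 by -1.92 ± 0.11 and -1.80 ± 0.13 (SE). VLDLR, a lipoprotein receptor, and RORA, a nuclear receptor, had another order, with number 2 highest. RORA was among those called higher at number 4, with a mean of 7.49 there against 8.33 at number 2. VLDLR stood 1.86 ± 0.12 (SE; limma, adjusted p = 0.000641) above the mean of the others at number 2 and 0.02 ± 0.12 (SE; limma, adjusted p = 0.889) at number 4.

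Of 17 measured members of the machinery that controls HIF, 4 were lower and 4 higher at number 1, with a median of -0.03, where 6.14% of all probe sets were lower and 10.6% higher. At number 4, 5 were higher and 5 lower, near the 26.3% and 25.5% of all probe sets. ARNT, the HIF partner, and EPAS1 were lower at number 1, by -0.60 ± 0.11 and -0.50 ± 0.11 (SE; limma, adjusted p = 0.013 and 0.0205). CITED2 and EGLN1 were lower there by -0.59 ± 0.15 and -0.92 ± 0.11 (SE; limma, adjusted p = 0.0365 and 0.00303). At number 4 ARNT, EPAS1 and CITED2 were higher, by 0.75, 0.32 and 0.93 (limma, adjusted p = 0.000966, 0.0387 and 0.00153). EPAS1 read 6.67 and 6.71 at number 4, near its 6.64 and 6.75 at number 2. EGLN1 did not pass at number 4, at 0.12 (limma, adjusted p = 0.388). HIF1A, the main alpha subunit, was singled out after its values were seen. It measured 10.14, 10.61, 10.39 and 9.98 in OICR-9429 cells, against 10.25, 10.66, 10.07 and 9.73 in untreated cells. At number 1 its difference was -0.05 ± 0.13 (SE; limma, adjusted p = 0.842), and at number 4 it was lower, at -0.50 ± 0.13 (SE; limma, adjusted p = 0.0129). HIF alpha is governed mainly at the level of protein, which arrays do not measure. CREBBP, a coactivator of HIF, was higher at number 1 by 0.60 ± 0.12 and lower at number 4 by -1.55 ± 0.12 (SE). SIAH1, a ubiquitin ligase, differed by 0.52 ± 0.12 and -1.52 ± 0.12 (SE) there. ELOB, a subunit of the VHL ligase, differed by 0.60 ± 0.14 and 0.71 ± 0.14 (SE).

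**Figure D3:**
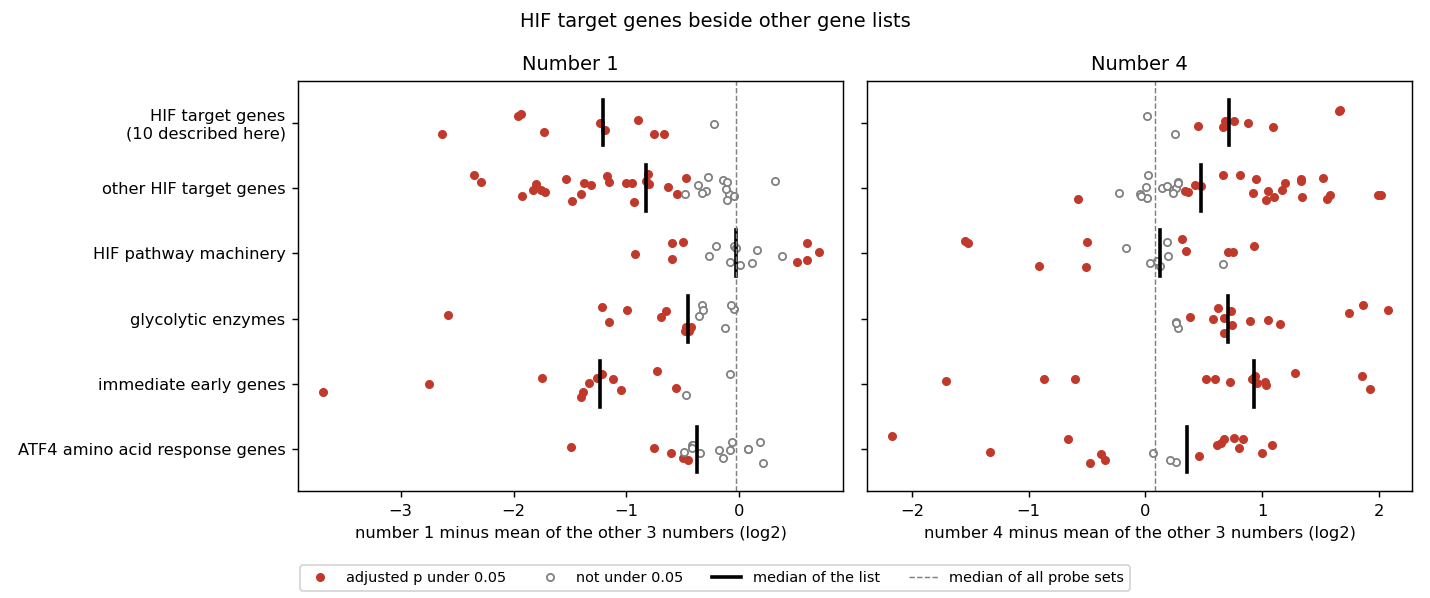
Log2 difference of number 1 (left) and number 4 (right) from the mean of the other 3 numbers for each measured gene (points, filled where the limma adjusted p was under 0.05) of 6 lists, with the list median (black bar) and the median of all probe sets (dashed line). The list medians at number 1 run from -1.24 for immediate early genes and -1.21 for the 10 HIF target genes to -0.03 for the HIF pathway machinery.

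Glycolytic enzymes, many of them HIF targets too, and early response genes also moved at these numbers. Of 16 glycolytic enzymes, 10 were lower and 0 higher at number 1, with a median of -0.46, and 13 were higher and 0 lower at number 4, with a median of 0.71. Over all probe sets 6.14% were lower at number 1 and 26.3% higher at number 4. At number 2, where 11.6% of all probe sets were lower, 9 glycolytic enzymes were lower and 0 higher. The mean of the others holds the high number 4 there. Of these enzymes, ENO2 averaged 7.90 at number 2, above 7.36 at number 1, and GPI 10.58, above 10.355. PFKP lay below number 1, at 10.66 and 10.79 against 11.09 and 11.06. Of the 10 HIF target genes 6 were higher at number 2 and 0 lower, where 15.4% of all probe sets were higher. That comparison holds the low number 1 in the mean of the others. In pairwise tests only KDM3A was higher at number 2 than at number 3 or number 4, and BNIP3, ADM and NDRG1 were lower than at number 4. The difference between the lists was not tested. The isozyme genes ALDOC and ENO2 differed at number 1 by -2.58 ± 0.12 and -1.16 ± 0.13 (SE), and GPI by -1.21 ± 0.12 (SE). Of 14 measured immediate early genes, 12 were lower and 0 higher at number 1, among them EGR1 at -3.69 ± 0.14 and JUN at -2.75 ± 0.11 (SE). At number 3, 6 of these were higher, where 1.18% of all probe sets were. At number 4, 11 were higher and 3 lower, with a median of 0.93. EGR1 was higher by 1.86 ± 0.14, JUN by 1.28 ± 0.11 and DUSP1, a phosphatase of MAP kinases, by 1.92 ± 0.17 (SE). The mean of the others holds the low number 1 there. JUN averaged 9.835 at number 4, below its 10.115 at number 3. NR4A3, an early response nuclear receptor, was higher at number 3 by 1.98 ± 0.15 and one of the 3 that were lower at number 4, by -1.71 ± 0.15 (SE). Of 18 measured genes of the ATF4 amino acid response, 5 were lower and 0 higher at number 1, and 9 were higher and 6 lower at number 4. At number 2, 6 of these 18 were higher and 1 lower, where 15.4% of all probe sets were higher and 11.6% lower. DDIT3 was the lower one, at -0.42 (limma, adjusted p = 0.0379). ASNS, which makes asparagine, peaked at number 2, at 2.57 ± 0.12 (SE) above the mean of the others. SLC7A11, a cystine transporter, did so too, at 2.44 ± 0.19 (SE), and XPOT, a transfer RNA exporter, at 0.86 ± 0.13 (SE).

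Markers of other blood cells were examined at the same numbers. Of 8 myeloid markers, 4 were higher and 0 lower at number 4, where 26.3% of all probe sets were higher. Their summed signal, on the unlogged scale, was 667 to 715 at number 4, against 349 to 458 at the other numbers. CD68, a lysosomal protein of macrophages, differed most, at 1.68 (limma, adjusted p = 4.69e-05). With 8.25 and 8.50 at number 4, against 6.48 to 7.00 elsewhere, CD68 made the largest part of the sum at number 4. LYZ, MPO and ITGAM did not pass there (limma, adjusted p = 0.974, 0.966 and 0.199). For 6 measured erythroid and megakaryocyte markers the sum was 723 to 846 at number 4, against 469 to 614 elsewhere, with 3 higher and 1 lower. Of the olfactory receptor genes, 18.4% were higher at number 4 and 0.862% were lower at number 1, both below the shares over all probe sets (26.3% and 6.14%). At number 1 the myeloid sum was 349 to 357 and 2 of 8 myeloid markers were lower. The 6 measured B-cell markers had 0 lower and 0 higher at number 1, as did the 6 NK and cytotoxic markers, and the 7 measured fibroblast and epithelial markers had 1 higher. At number 4 these 3 lists had 1, 3 and 1 higher and 1, 0 and 1 lower. Of the 15 measured T-cell leukaemia markers, 7 were higher and 4 lower at number 4, where 26.3% of all probe sets were higher and 25.5% lower. CD4 was higher by 1.73, and CD1A, CD1B and RAG1, genes of immature thymocytes, were lower by -1.66, -1.42 and -0.87 (limma, adjusted p = 4.61e-05, 5.89e-05, 0.000236 and 0.00117). PTCRA, of the same list, did not pass, at 0.19 (limma, adjusted p = 0.362). CD1A and CD1B were also higher at number 3, by 2.03 and 1.83 (limma, adjusted p = 0.000658 and 0.00285), which enters the mean that number 4 is set against. No marker is at 0 on this scale, and the part of these signals in the results at numbers 1 and 4 was not tested.

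The genes whose pattern was most like that of the 10 were found by the root mean square difference, over the 8 arrays, between a gene's centred log2 values and the median centred profile of the 10 genes. That profile stood at -0.95, 0.31, 0.19 and 0.63 in OICR-9429 cells of numbers 1 to 4, and at -0.90, 0.26, 0.08 and 0.45 in untreated cells. KDM5B, a histone H3 lysine 4 demethylase, was nearest outside the 10, with a root mean square difference of 0.098 log2 units. It measured 9.01, 10.09, 9.85 and 10.36 in OICR-9429 cells, against 8.99, 9.93, 9.79 and 10.20 in untreated cells. SERPINE2, a secreted protease inhibitor, followed at 0.113, and RASGEF1B, an exchange factor for Ras-family GTPases, at 0.127. NPNT, DDIT4L, CD300A, LY9 and ARHGEF7 lay between 0.157 and 0.171. The measure rests on 8 arrays in 4 pairs and favours genes with the size of change of the median. Set against the median profile of the other 9 genes in the same way, PDK1 was the nearest of 17678 genes, at 0.044, and BNIP3L ranked 4, at 0.152. The rest were less near: P4HA1, ADM, ANKRD37 and VEGFA ranked 306, 433, 457 and 500. KDM3A, NDRG1 and EGLN3 ranked 2208, 2652 and 3579. BNIP3 was far, at 0.664 and rank 11596, since it moved much more than the median.

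OICR-9429 did not move any of the 10 genes past the threshold. With limma, 0 of the 10 passed an adjusted p of 0.05, where 0% of all probe sets did, and 0 had an unadjusted p under 0.05, where 0.49% did. Differences of OICR-9429 minus untreated means ran from -0.12 for ANKRD37 to 0.17 for EGLN3, with 7 above 0 and 3 below it, a median of 0.05 for the 10 genes and of 0.005 for all probe sets. BNIP3 averaged 10.53 ± 1.35 in OICR-9429 cells and 10.54 ± 1.41 in untreated cells (SD, n = 4 each), which differ by -0.01 ± 0.79 log2 units (SE). VEGFA averaged 8.38 ± 1.12 in OICR-9429 cells and 8.32 ± 0.86 in untreated cells (SD, n = 4 each), which differ by 0.06 ± 0.58 log2 units (SE). The values of the groups overlapped for all 10 genes, where 0.737% of all probe sets had groups that did not overlap. These SDs hold the spread between numbers, which treated and untreated arrays share.

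Within numbers the differences were small for some genes and inconstant for others. The same-numbered difference of OICR-9429 minus untreated was at most 0.12 for BNIP3, 0.13 for BNIP3L and for P4HA1 and 0.22 for PDK1, in either direction. ADM gave 0.43, 0.16, -0.63 and 0.34 at numbers 1 to 4. ANKRD37 gave 0.12, 0.31, -0.25 and -0.67, and EGLN3 gave -0.08, 0.69, 0.29 and -0.21. These 3 genes supplied the 3 differences past 1.5-fold among the 40, and none of the 10 genes kept 1 sign at all 4 numbers, where 12.6% of all probe sets did. VEGFA stood at -0.38 and -0.07 at numbers 1 and 2 and at 0.35 at both numbers 3 and 4. NDRG1 gave -0.03, -0.35, 0.26 and -0.07, and KDM3A gave 0.14, 0.35, 0.06 and -0.24. By number, the median of the 10 genes was 0.005, 0.035, 0.075 and 0.095 for numbers 1 to 4, against -0.02, 0.01, 0 and 0.01 for all probe sets.

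**Figure D4:**
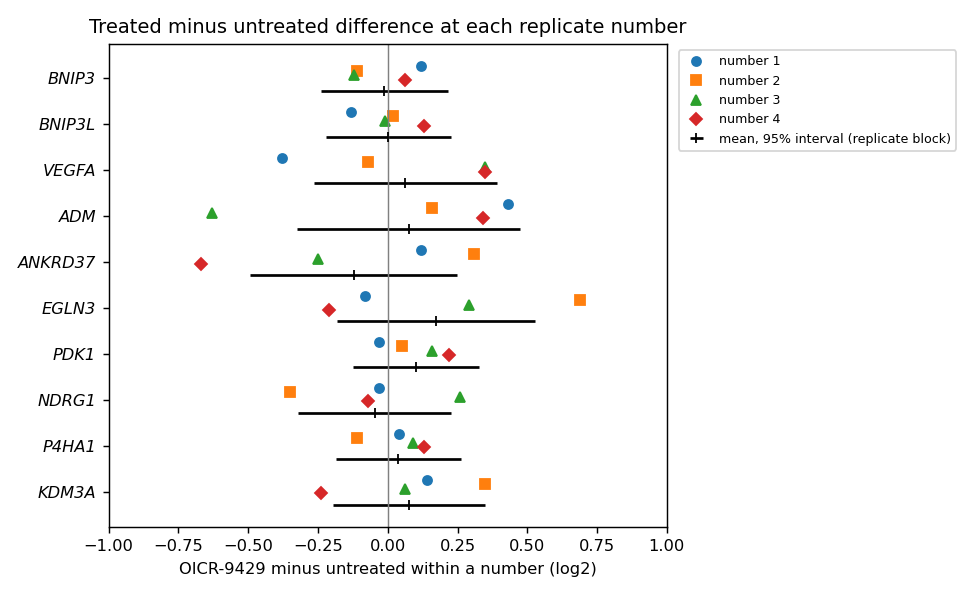
Log2 difference of the OICR-9429 array minus the untreated array of the same replicate number (1 symbol per number) for each of the 10 genes, with the mean and its 95% interval from the fit with the replicate block (black). Every interval includes 0, and the symbols of ADM, ANKRD37 and EGLN3 are the most scattered.

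With the replicate block, in which each treated array is set against the untreated array of its number, 0 of the 10 genes passed again (smallest adjusted p 0.881, at EGLN3, limma) and 0 had an unadjusted p under 0.05, where 5.55% of all probe sets did. All 10 of the 95% intervals lay within 1.5-fold in that fit, from a lowest bound of -0.49 at ANKRD37 to a highest bound of 0.53 at EGLN3. Without the block 0 of the 10 intervals lay within 1.5-fold and 6 lay within 2-fold. For BNIP3 the interval was -0.24 to 0.22 with the replicate block and -1.79 to 1.76 without it, and for VEGFA it was -0.26 to 0.39 and -1.23 to 1.36. Intervals are not adjusted for the number of genes.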

How the data were processed

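The deposited values are log2 expression per probe set from 8 Affymetrix arrays. The submitters' processing notes name RMA, which corrects background, equalises arrays and condenses probes into probe sets, and the Transcriptome Analysis Console. Versions and genome build: not given in the sources used here. Scanner files and scan batch were not examined. Gene names are those of the platform annotation, updated by Entrez ID through a RefSeq table (17709 with 1 symbol, 3739 with none), and the highest mean stood for a gene with several. Limma (version 3.58.1, R 4.3.3) was fitted to all probe sets, two-sided: treatment alone, treatment with the replicate number as a block, and number with treatment. Tests between numbers rest on the spread of treated-minus-untreated differences, not on separate cultures. The titles of the samples supply the numbers. Deviations from group means correlated across probe sets between same-numbered arrays at 0.696, 0.748, 0.566 and 0.865. Same-numbered arrays were therefore treated as pairs, although the labels state no pairing. Fits were tested on simulated data. Alternatives covered the variance prior, dim probe sets, array medians and left-out arrays.

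The 10 genes and all lists were chosen with earlier results of these data known. Named genes were the 10, the 3 genes of each list (6 for other HIF targets) with the smallest p between numbers, and the 8 nearest in pattern. Others, among them HIF1A, ARNT, EPAS1, CITED2 and EGLN1, were named after their values were seen.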

Additional observations from a re-analysis of the deposited data

Results flagged for a closer look

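Each of the 10 genes was checked in both groups of 4 arrays for 1 array far from the other 3, with Dixon's test at its 95% critical value. Of 20 groups 4 held such an array, where chance gives about 1 in 20 for independent groups. The groups here were not independent, since same-numbered arrays deviated together, and the genes were picked with earlier results known. No excess over chance can therefore be read from the count. All 4 were arrays of number 1: BNIP3L at 10.93 in OICR-9429 cells and at 11.06 in untreated cells, VEGFA at 6.71 in OICR-9429 cells, and P4HA1 at 8.72 in OICR-9429 cells.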

How the results depend on the processing

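The counts of genes and probe sets past the threshold kept within 1.5 times of their value under the other variance prior, the filter on dim probe sets, aligned array medians and, for numbers, no treatment term. With the replicate block the treatment counts stayed at 0 of 10 genes and 0 probe sets, as they did in every fit that left out an array or a pair, and the block changed no other call. Leaving out both arrays of a number gave 2979 (without number 4) to 10394 probe sets differing between numbers, 4 (without number 1) to 9 of the 10 genes differing, and 4 (without number 1) to 8 higher at number 4. KDM3A changed direction at number 4, to -0.24 without number 1 and -0.08 without number 3, and stood at 0.355 without number 2. Left-out pairs with and without the block were chosen after seeing the data.

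None of the treatment differences was called, and the signs of 9 of the 10 turned when arrays were left out (EGLN3 did not turn). Over all those fits, of which the widest leave out 1 array and so break a pair, the log2 difference ran from -0.69 to 0.62 for BNIP3, -0.27 to 0.32 for BNIP3L, -0.35 to 0.62 for VEGFA, -0.24 to 0.31 for ADM, -0.35 to 0.19 for ANKRD37, -0.19 to 0.43 for PDK1, -0.48 to 0.38 for NDRG1, -0.45 to 0.53 for P4HA1 and -0.20 to 0.26 for KDM3A. With whole pairs left out, 7 genes turned sign and P4HA1, PDK1 and EGLN3 did not, and the ranges were narrower: -0.06 to 0.02 for BNIP3, 0.01 to 0.09 for P4HA1, 0.06 to 0.14 for PDK1 and -0.03 to 0.21 for VEGFA. With array medians aligned BNIP3 stood at 0.0125. The cause was not tested, apart from unequal numbers left in each group. No background measured on the arrays was used, only the olfactory receptor genes as a guide, and the low signal of EGLN3 limits what can be said of it. Each gene had 1 probe set, so no other probe set could be tried.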
